A study of Macaca mulatta with 80 samples.

Results

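Gene expression in adult CA3 was set against that in adult CA1, fields of the hippocampus that lie next to each other along its main circuit. The comparison used every array labelled as adult CA3 and every array labelled as adult CA1, which came to 4 and 4, or 8 of the 80 arrays of the series, and differences were taken as CA3 minus CA1 between arrays that carry the same number (1 to 4) in their titles. All animals were male rhesus monkeys, the adults between 6 and 12 years old, with no genetic or drug manipulation given in the labels. The newborns used for a second comparison were 1 day old. All cell layers of each field were dissected from the middle of its width in the body of the hippocampus after a barbiturate overdose and overnight storage in RNA preservative. Each sample is therefore bulk tissue, in which fewer cells of a type cannot be told apart from less RNA per cell. The arrays were designed for human transcripts, so levels of different genes were not compared with one another, and a level is given as the log2 signal of 1 probe set.

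In the hippocampal circuit, granule cells of the dentate gyrus send mossy fibres to the pyramidal neurons of CA3. CA3 neurons excite one another through recurrent collaterals and excite CA1 pyramidal neurons through the Schaffer collaterals, and CA1 projects on to the subiculum and the entorhinal cortex. Strong long-term potentiation that depends on NMDA receptors is typical of the CA3 to CA1 synapse, whereas the mossy fibre synapse is known for kainate receptors and for potentiation that begins on the presynaptic side.

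RNA quality was read from the log2 ratio of the 3' to the 5' control probe sets of GAPDH, in which a higher value means less full-length cRNA. The adult CA3 arrays had a mean of 2.74 ± 0.321 (SD, n = 4; range 2.33 to 3.06) and the adult CA1 arrays 2.75 ± 0.321 (SD, n = 4; range 2.44 to 3.16). The means differed by -0.0035 (exact sign-flip test, two-sided, p = 1; the smallest p that 4 pairs allow is 1 in 8, so the test could not pass 0.05). Both lay above the other adult regions, whose group means were 1.35 to 1.6, and above the newborn groups, at 1.14 in CA3 and 1.38 in CA1. After quantile normalization the adult means were 2.7 and 2.95, and the part of this in the results below was tested only by taking the ratio as a covariate. The 8 arrays correlated with one another at 0.964 to 0.977 over all probe sets, on the values as deposited.

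Of 19,775 genes tested, 531 (2.69%) differed between adult CA3 and CA1 at a Benjamini-Hochberg adjusted limma p under 0.05, and such genes are named as called. They comprised 210 genes higher in CA3 (1.06%) and 321 lower (1.62%), with 2370 genes at an unadjusted p under 0.05. The median size of a called difference was 0.78 log2, the smallest was 0.55, and 62 genes were higher and 85 lower by at least 1 log2, that is, by a doubling. In 527 of the called genes all 4 pairs had the same sign. The CA3 and CA1 arrays did not overlap in 454 of the called genes, while 7.1% of all genes tested had groups that did not overlap. The median difference over all genes was 0.00933. Leaving out 1 pair at a time gave 290, 395, 344 and 310 calls without pairs 1, 2, 3 and 4. Genes near the threshold therefore changed sides with a single pair, and of 125 called genes examined one by one, 76 kept their call in every fit without a pair, 49 lost it in at least 1 and 10 lost it in all 4. Those named are given with their groups below, and each of them kept its sign. When a gene was instead read as the median signal over all of its probe sets, 262 genes were called, 227 of them among the 531, and the named genes that lost their call this way are also given with their groups.

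**Figure D1:**
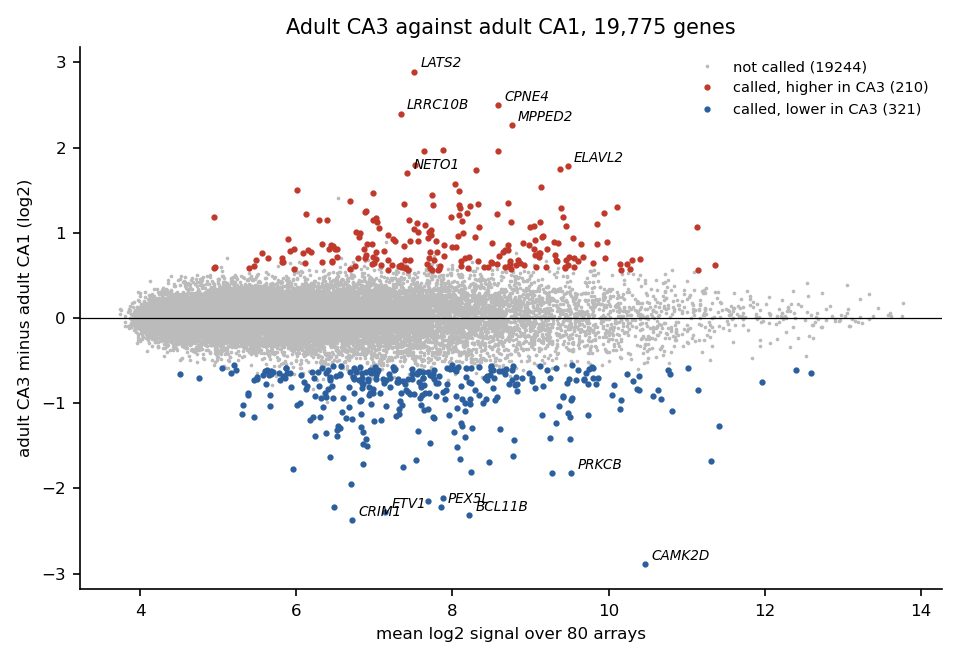
Each point is 1 of the 19,775 genes, placed by its mean log2 signal over 80 arrays (x axis) and its adult CA3 minus adult CA1 difference in log2 (y axis), with called genes coloured by direction. The 210 higher and 321 lower calls reach from 0.55 log2 to the extremes LATS2 at 2.89 and CAMK2D at -2.89.

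The largest difference in favour of CA3 was that of LATS2, a kinase of the Hippo growth-control pathway. Its log2 signal was 9.65, 9.84, 9.52 and 9.09 in CA3 arrays 1 to 4 and 6.98, 6.28, 6.58 and 6.7 in CA1 arrays 1 to 4. Every CA3 array was thus above every CA1 array, with a difference of 2.89 (SE 0.175, adjusted p = 1.22e-07), or 7.41-fold. This size belongs to 1 probe set: 2 of the other 3 LATS2 probe sets lay the same way, and the median signal over all of them gave a difference of 0.51, which was not called. CPNE4, a copine that binds phospholipids in response to calcium, stood at 9.75, 9.32, 9.5 and 10.04 in CA3 and at 7.36, 7.07, 7.05 and 7.13 in CA1. The groups were well apart, the difference was 2.5 (SE 0.151, adjusted p = 1.22e-07), and its other probe set lay the same way. MPPED2, which encodes a metallophosphoesterase, had values of 9.67, 9.34, 9.71 and 9.48 in CA3 against 7.39, 7.04, 7.53 and 7.18 in CA1. Its difference was 2.26 (SE 0.138, adjusted p = 1.22e-07), again with no overlap. LRRC10B differed by 2.4 (SE 0.169, adjusted p = 5.23e-07), with CA3 arrays from 9.59 to 10.27 and CA1 arrays from 7.2 to 7.86.

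The other genes among the 14 largest on the CA3 side covered several kinds of protein. The RNA-binding protein ELAVL2, of the neuronal Hu family, was higher by 1.78. LPL, the lipase that releases fatty acids from lipoproteins, was higher by 1.79, and TFRC, the transferrin receptor through which cells take up iron, by 1.57. ARHGEF6, an exchange factor for Rac and Cdc42 GTPases, differed by 1.74, KCTD6, an adaptor of cullin ubiquitin ligases, by 1.74, and NETO1, an auxiliary subunit of kainate receptors, by 1.7. TAFA2, a secreted protein of the nervous system, differed by 1.96, ZFPM2, a cofactor of GATA transcription factors, by 1.96, VWA5A by 1.98 and CRTAC1 by 1.53. All 14 had groups that did not overlap, as did 454 of the 531 called genes, and the choice of the largest differences favours this. The narrowest was CRTAC1, whose lowest CA3 array was at 10.23 and whose highest CA1 array was at 9.62. For TFRC the spread within CA3 was wide, from 8.39 to 9.68, and its median over probe sets gave 0.19, which was not called. The other VWA5A probe set did not lie the same way.

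On the CA1 side the largest difference was that of CAMK2D, the delta subunit of calcium/calmodulin-dependent protein kinase II. Its values were 8.4, 8.24, 9.1 and 8.78 in CA3 and 11.64, 11.44, 11.48 and 11.52 in CA1. The CA1 arrays were tightly grouped and all above the CA3 arrays, with a difference of -2.89 (SE 0.164, adjusted p = 1.22e-07), or 7.42-fold, and all 4 other probe sets lay the same way. CRIM1, a membrane protein that binds bone morphogenetic proteins, had values of 6.1, 5.74, 5.77 and 6.27 in CA3 and 8.59, 8.39, 7.99 and 8.37 in CA1. Its groups were also apart, by -2.37 (SE 0.148, adjusted p = 1.27e-07). PEX5L, a protein that regulates the traffic and gating of HCN channels, was at 6.86, 6.87, 7.09 and 6.96 in CA3 and at 8.85, 9.05, 9.34 and 9.4 in CA1. This difference was -2.22 (SE 0.144, adjusted p = 1.65e-07), and its 3 other probe sets lay the same way.

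Transcription factors, signalling molecules and surface proteins made up much of the rest of the 14 largest on the CA1 side. The transcription factors were BCL11B (-2.31), ETV1 (-2.28) and MEIS2 (-2.11). Among signalling genes, KITLG, the ligand of the Kit receptor, differed by -2.22, MET, the hepatocyte growth factor receptor, by -1.94, and PRKCB, protein kinase C beta, by -1.82. The calcium buffer calbindin, CALB1, differed by -1.81, with CA3 arrays from 6.71 to 8.35 and CA1 arrays from 8.79 to 9.78. PCDH19, a protocadherin, differed by -1.82, the netrin-like axon protein NTNG1 by -1.74, VSTM2A by -2.15 and SLC35F4 by -1.77. All 14 had groups that did not overlap, which the choice by size favours here too. The median over probe sets gave 0.12 for KITLG, -0.066 for ETV1, -0.031 for NTNG1, -0.2 for MET and -0.58 for PRKCB, none of them called. Of the 3 other KITLG probe sets, 1 lay the same way, and those probe sets had mean signals of 3.87 to 4.57 in CA3.

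**Figure D2:**
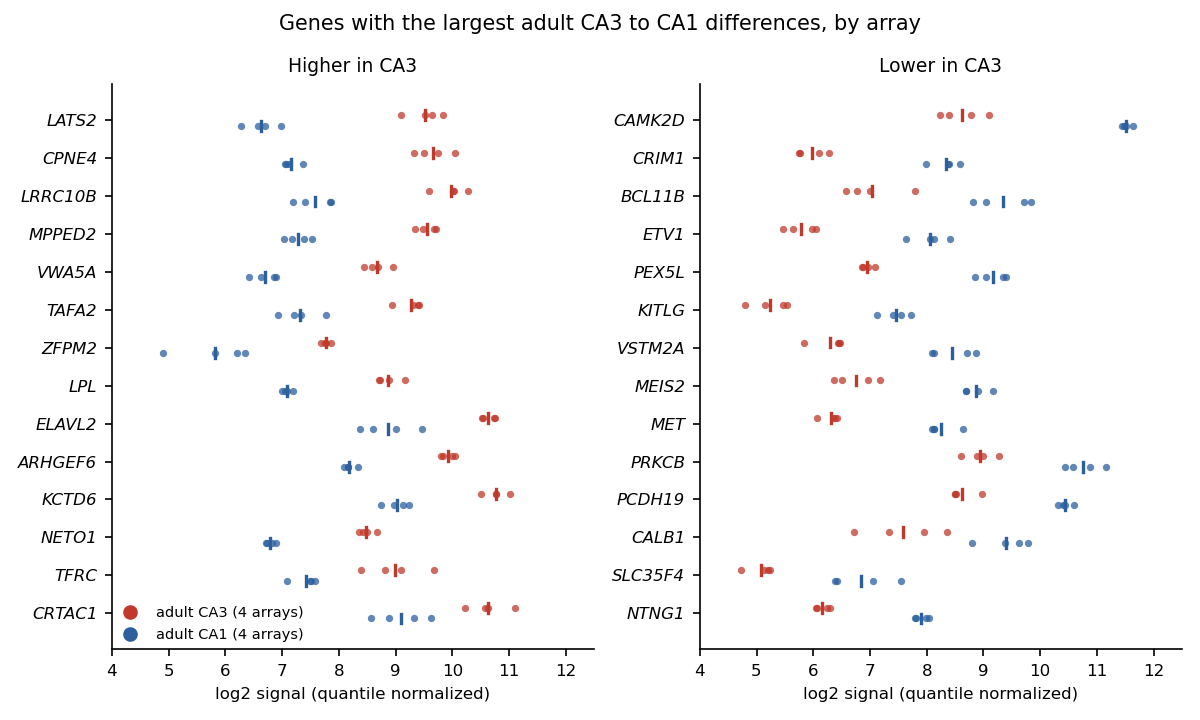
Log2 signal (x axis, quantile normalized) of the 14 genes with the largest differences in each direction (y axis), with 1 point for each of the 4 CA3 and 4 CA1 arrays. In all 28 genes the CA3 and CA1 arrays do not overlap, which their choice by size favours: the same holds for 454 of the 531 called genes and for 7.1% of all genes.

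The levels of these 28 genes in the dentate gyrus, subiculum and entorhinal cortex of the adults are given as a description. The genes were chosen by the size of the CA3 to CA1 difference, which favours an extreme mean in CA3 or CA1. CA3 had the highest mean of the 5 regions for 11 of the 14 genes higher in CA3, and the dentate gyrus lay above CA1 for 13 of them and above CA3 for 2. MPPED2, for example, was at 9.21 ± 0.275 (SD, n = 4) in the dentate gyrus, 8.01 in the subiculum and 8.52 in the entorhinal cortex. LATS2 stood at 8.1 in the dentate gyrus, 6.65 in the subiculum and 6.94 in the entorhinal cortex. Among the 14 genes lower in CA3, CA3 had the lowest mean for 8 and CA1 the highest for 10, while the entorhinal cortex was above CA3 for 14 and the subiculum for 13. The exception in the subiculum was CALB1, at 7.31 ± 0.578 (SD, n = 4), while the dentate gyrus was at 9.15. CAMK2D was at 11.9 in the entorhinal cortex, 11.28 in the subiculum and 9.52 in the dentate gyrus, so that CA3, at 8.63, was the lowest of the 5. Both fields compared here had a higher GAPDH ratio than the other regions, and its part in these orders was not tested.

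**Figure D3:**
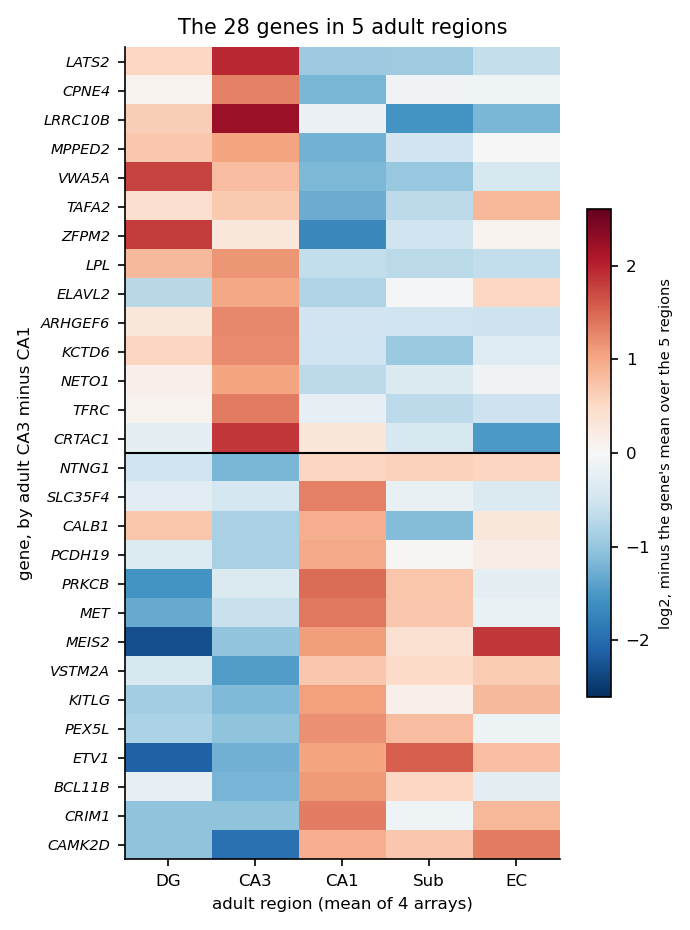
Mean log2 signal of 4 adult arrays in each of 5 regions (x axis: DG, dentate gyrus; CA3; CA1; Sub, subiculum; EC, entorhinal cortex) for the 28 genes with the largest CA3 to CA1 differences (y axis), coloured as the deviation from the gene's mean over the regions. CA3 is the highest region in 11 of the 14 genes at one end, and CA1 the highest in 10 of the 14 at the other. The choice of these genes by size favours both.

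Genes known as markers of the dissected fields, mostly from rodents, moved in part. Of 24 measured genes listed for CA3 pyramidal neurons, 6 were higher in CA3 and 0 lower (median difference 0.057, or 0.62 over the 12 members above the median level), and of 22 listed for CA1 pyramidal neurons 6 were lower in CA3 and 0 higher (median -0.13, or -0.23 above the median level). On the CA3 list these were CPNE4 (2.5), NECTIN3, an adhesion molecule (1.14), SPOCK1, a proteoglycan (1.06), HOMER3, a postsynaptic scaffold (1.01), HS3ST4, a heparan sulphate sulphotransferase (0.88), and NRIP3 (0.78). On the CA1 list they were PEX5L (-2.22), MEIS2 (-2.11), MPPED1 (-1.41), NDST4 (-1.26), ITPKA, which phosphorylates inositol trisphosphate (-1.14), and POU3F1 (-1.04). Of these 12, HS3ST4 lost its call without pair 1 (difference 0.72), and the other probe set of MPPED1 did not lie the same way. By the median over probe sets, HOMER3 (0.081) and NDST4 (-0.57) were not called. Several textbook markers, named here after their values were seen, did not pass the test. GRIK4, a kainate receptor subunit of CA3 in rodents, stood at a mean of 5.09 in CA3 and 5.08 in CA1, a difference of 0.0083 (95% confidence interval -0.32 to 0.34), at a signal below the median gene. WFS1, a CA1 marker in rodents, differed by -0.22 (interval -0.58 to 0.14), and FIBCD1 by 0.22 (-0.11 to 0.55). SLC17A7, the glutamate transporter of excitatory vesicles in both fields, differed by -0.26 (interval -0.63 to 0.12), and CAMK2A, the alpha subunit of the kinase, by 0.24 (-0.11 to 0.59).

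Markers of neighbouring neurons were read in the same way. A difference between the fields cannot show tissue of a neighbour that entered both alike, so how cleanly they were dissected was not tested. Of 15 measured CA2 genes 0 were called in limma (median -0.049), with the CA2 marker RGS14 at -0.44 (adjusted p = 0.234), AMIGO2 at 0.28 (adjusted p = 0.572) and PCP4 at -0.057. The PCP4 arrays ranged from 6.84 to 9.05 in CA3 and from 7.22 to 8.27 in CA1. Of 16 dentate granule cell genes, ZFPM2 and GRP, gastrin-releasing peptide (1.33), were higher in CA3 and CALB1 was lower (median 0.14). PROX1, the transcription factor that defines granule cells, had a mean of 7.22 in both fields. Of 14 subicular genes, ETV1 and NTS, neurotensin (-0.9), were lower in CA3 (median 0.0097), NTS not being called without pair 4. The part of neighbouring neurons in the results was not tested.

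Among marker lists of non-neuronal cells, that of oligodendrocytes, the myelin-forming cells, held the most called genes. Of 21 measured oligodendrocyte and myelin genes, 9 were higher in CA3 and 0 lower, with a median difference of 0.59. The mean log2 level of the list was 7.28 to 7.39 in the CA3 arrays and 6.67 to 6.86 in the CA1 arrays, with no overlap. This was not particular to myelin genes, since several other lists did not overlap either, in both directions. Astrocyte genes were at 8.73 to 8.95 in CA3 and 8.38 to 8.65 in CA1, and NMDA receptor genes at 6.9 to 7.03 and 7.07 to 7.29. MBP, myelin basic protein, stood at 10.19, 10.25, 10.3 and 9.91 in CA3 and at 8.9, 9.11, 9.2 and 9.17 in CA1. Its difference was 1.07 (SE 0.146, adjusted p = 0.000453). CLDN11, the tight-junction protein of myelin, differed by 1.13, ENPP2 by 1.08, TMEM125 by 0.98, UGT8, which makes myelin galactolipid, by 0.92, and CNP, MOG and MYRF by 0.86 each. MOBP differed by 0.59 (adjusted p = 0.0426), a call that was lost whichever pair was left out, with differences from 0.51 to 0.71. MAG, another myelin protein, was at -0.076 (adjusted p = 0.913) on a probe set with a mean of 6.01 in CA3. Of the 8 other MBP probe sets 5 lay the same way, and the median signal over the probe sets of the gene gave -0.22. Read in this way MYRF was at -0.15, CLDN11 at 0.15, MOG at 0.56 and MOBP at 0.64, none of them called, and the median of the myelin list was 0.35.

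Astrocyte genes showed 3 higher and 0 lower of 18 (median 0.26). GFAP, the astrocyte filament protein, was at 8.04, 8.73, 9.27 and 8.85 in CA3 and at 6.93, 8.14, 7.26 and 7.36 in CA1. Array 1 of CA3 and array 2 of CA1 overlapped, and the difference was 1.3 (SE 0.19, adjusted p = 0.000754). The 2 other GFAP probe sets, with signals of 4.71 and 5.28 in CA3, differed by -0.02 and -0.053. ALDOC (0.62) and FABP7 (0.6) were also higher. ALDOC lost its call without pair 1, 2 or 4, and FABP7 without any 1 of the pairs. Of 13 microglia genes only C1QB, a complement component, was called (-0.69), of 12 oligodendrocyte precursor genes only SOX4 (-0.79), and of 12 ependyma and choroid plexus genes only KL (-0.65). C1QB lost its call without pair 2, 3 or 4, SOX4 without pair 1, 2 or 4, and KL without pair 3 or 4. SOX4 (-0.29) and KL (-0.65) were not called by the median over probe sets. The choroid plexus gene TTR, named after its values were seen, was at 10.6, 6.46, 7.34 and 7.43 in CA3 and at 6.33 to 6.85 in CA1, with array 1 of CA3 far above the rest, and was not called (1.41, adjusted p = 0.134). In limma, 0 of 16 endothelium and pericyte genes and 0 of 14 meninges and fibroblast genes were called. The part of glial cells in the differences of other genes was not tested.

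Of 20 interneuron genes, 2 were higher and 2 lower in CA3 (median 0.1). RELN, the secreted protein reelin, differed by 0.74 and SST, somatostatin, by 0.68. LAMP5 differed by -0.71 and VIP, vasoactive intestinal peptide, by -0.61. The calls were lost without pair 1 or 3 for RELN, without pair 1, 3 or 4 for SST and VIP, and without pair 2, 3 or 4 for LAMP5.

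**Figure D4:**
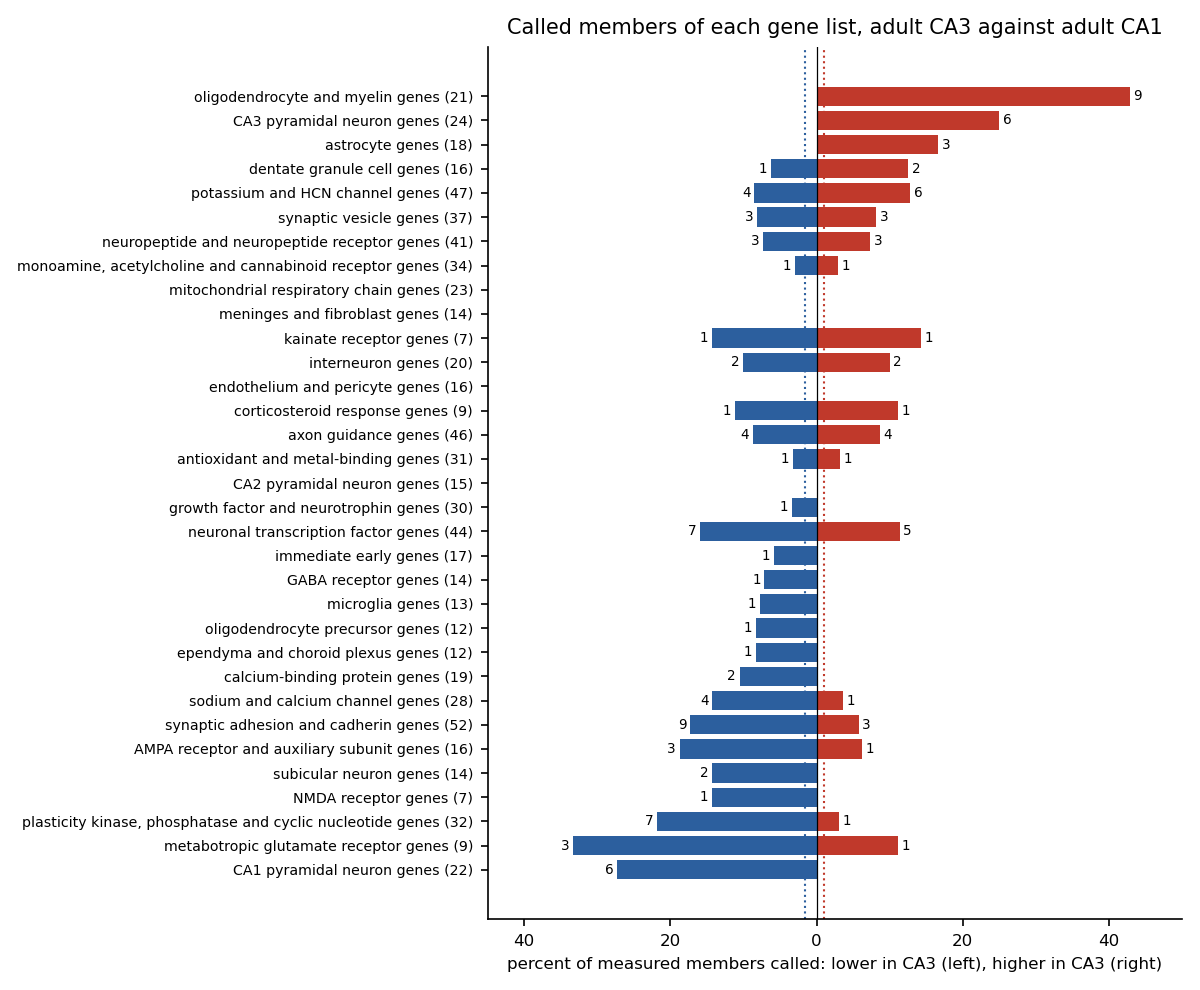
Percent of the measured members of each gene list (y axis) that were called higher in adult CA3 (right) or lower (left). The oligodendrocyte and myelin list has 9 of 21 on the right and 0 on the left, and 4 of the 33 lists have no called member.

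Across these lists and those that follow, 33 in number, 710 of 771 genes were measured, and 29 lists had at least 1 called gene. The lists hold many well-expressed brain genes. Among the 10,180 genes whose higher group mean was above the median of all genes (5.98), 500 (4.91%) were called, against 2.69% of all genes. Of these 10,180 genes, 1.97% were higher in CA3 and 2.94% lower. A list's share is better set beside these than beside 2.69%, though it also counts members below that level. Of the 24 CA3 neuron genes, for example, 12 were above it, so the sets compared are not alike. The lists were chosen with earlier results of these data known, so a larger share is a description and not a test. The microglia (7.69%), oligodendrocyte precursor (8.33%) and ependyma (8.33%) lists had 1 called gene each, and nothing is read from their shares.

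The called AMPA and NMDA receptor genes were lower in CA3, except for SHISA6. Of 16 AMPA receptor and auxiliary subunit genes, 1 was higher and 3 lower in CA3 (median -0.19). GRIA2, the subunit that sets calcium permeability, was at 10.23, 9.58, 10.08 and 9.6 in CA3 and at 11.12, 10.86, 10.69 and 10.5 in CA1. The groups did not overlap, and the difference was -0.92 (SE 0.15, adjusted p = 0.00203). CACNG3, a transmembrane AMPA receptor regulatory protein, differed by -1 (adjusted p = 0.0106) and CNIH3, a cornichon, by -0.72 (adjusted p = 0.00852). SHISA6, another AMPA receptor partner, was higher in CA3 by 0.65 (adjusted p = 0.0321), with array values of 11.07 to 11.41 against 10.35 to 10.87. Of 7 NMDA receptor genes, GRIN2A was lower by a difference of -0.6 (adjusted p = 0.0258), a call lost whichever pair was left out. GRIN2B was at -0.56 (adjusted p = 0.0679) and the AMPA subunit GRIA1 at -0.43 (adjusted p = 0.235). CACNG3 was not called without pair 1, 2 or 3, CNIH3 without pair 1 or 4, and SHISA6 without pair 1, 2 or 4. The 2 other SHISA6 probe sets, with signals of 3.99 and 4.49 in CA3, lay the opposite way. By the median over probe sets, SHISA6 (-0.045), CNIH3 (-0.41) and GRIN2A (-0.44) were not called.

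Kainate and metabotropic receptors differed gene by gene. Of 7 kainate receptor genes, NETO1 was higher in CA3, at 8.5, 8.35, 8.42 and 8.67 against 6.89, 6.73, 6.71 and 6.83, and GRIK1 was lower. The NETO1 groups were far apart for their spread, with a difference of 1.7 (SE 0.139, adjusted p = 1.92e-06), while GRIK1 differed by -0.81 (adjusted p = 0.00852). Of 9 metabotropic glutamate receptor genes and their scaffolds, 1 was higher and 3 were lower. GRM5, the postsynaptic group I receptor, had values of 8.07, 7.79, 7.8 and 7.79 in CA3 and 9.41, 9.3, 9.25 and 9.11 in CA1. Its difference was -1.41 (SE 0.139, adjusted p = 1.58e-05), on a probe set whose 2 dimmer partners gave 0.052 and 0.074. The Homer scaffolds, which tie these receptors to the postsynaptic density, went opposite ways, HOMER3 by 1.01 (adjusted p = 0.00161) and HOMER1 by -0.59 (adjusted p = 0.0443). GRM3 was at -0.58 (adjusted p = 0.041), and neither it nor HOMER1 kept its call when any single pair was left out. Of 14 GABA receptor genes only GABRB2 was called (-0.58, adjusted p = 0.0458), or 7.14%, against 4.91% of genes above the median level. GABRB2 lost its call without pair 1, 2 or 4, and GRIK1 without pair 4. By the median over probe sets, GRM5 (0.052), HOMER3 (0.081), GRIK1 (-0.3) and GABRB2 (-0.2) were not called.

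Potassium channel genes were called in both directions, 6 higher and 4 lower in CA3 of 47 measured with the HCN channels (median -0.078). KCNQ5, a subunit of M-type channels, was at 6.87, 7.01, 7.04 and 6.71 in CA3 and at 6.06, 5.64, 4.78 and 5.13 in CA1. The difference was 1.51 (SE 0.19, adjusted p = 0.000205), and the lowest CA3 array was above the highest CA1 array. KCNT2, a sodium-activated channel, was higher by 1.29, KCNMB4, the beta subunit of large-conductance calcium-activated channels in neurons, by 1.1, and KCNC1, a fast delayed rectifier, by 1. KCNS3 (0.94) and KCNA1 (0.86) were the other called genes on this side. DPP10, an accessory subunit of A-type channels, differed by -1.1, KCNIP4, which serves the same channels, by -0.97, the inward rectifier KCNJ4 by -1.06 and the leak channel KCNK9 by -0.94. KCNJ4 lost its call without pair 1. With the median over probe sets, 4 members were called higher and 1 lower, and KCNT2 (0.59), KCNA1 (0.59), KCNIP4 (-0.5), KCNJ4 (-0.69) and KCNK9 (-0.45) were not called.

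Sodium and calcium channel genes had 1 called higher and 4 lower of 28 (median -0.15). The alpha2delta subunits, which carry calcium channels to the surface, were on both sides. CACNA2D3 was at 10.28, 9.78, 10.18 and 10.33 in CA3 and at 9.12, 9.12, 8.67 and 8.92 in CA1, a difference of 1.18 (SE 0.16, adjusted p = 0.0004). CACNA2D1 differed by -1.07 (adjusted p = 0.000754) and CACNA2D2 by -0.74 (adjusted p = 0.0151). ITPR1, the calcium release channel of the endoplasmic reticulum, differed by -1.21 and CACNA1E, the R-type channel, by -0.65. Of 19 calcium-binding protein genes, CALB1 and CADPS2 (-0.68) were lower and 0 were higher in limma. The calls were lost without pair 2 or 4 for CACNA2D2, without pair 1, 3 or 4 for CACNA1E and without pair 1, 2 or 3 for CADPS2. By the median over probe sets, CACNA2D1 (-0.54) and CACNA1E (-0.22) were not called.

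Kinases, phosphatases and cyclic nucleotide enzymes of synaptic plasticity were called mostly on the CA1 side, 7 lower and 1 higher in CA3 of 32 (median -0.11). CAMK2D (-2.89), PRKCB (-1.82) and ITPKA (-1.14) led them. PRKAR2B, a regulatory subunit of protein kinase A, stood at 8.41 to 8.68 in CA3 and at 9.41 to 9.91 in CA1, a difference of -0.96 (adjusted p = 0.00133). ADCY8, a calcium-stimulated adenylyl cyclase, differed by -0.77, PPP3CA, the catalytic subunit of calcineurin, by -0.75 and PRKCH by -0.62. PRKCE, protein kinase C epsilon, was the gene on the other side, at 0.58 (adjusted p = 0.0425). PRKCE and PRKCH were not called without any 1 of the pairs, ADCY8 without pair 3 or 4, and PPP3CA without pair 1 or 2. PRKCB (-0.58), PPP3CA (-0.4), PRKCH (-0.17) and PRKCE (-0.04) were not called by the median over probe sets.

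Vesicle release genes were called 3 higher and 3 lower of 37 (median 0.032). RIMS2 and RIMS1, scaffolds of the release site, differed by 1.23 (adjusted p = 0.000348) and 0.93 (adjusted p = 0.00765). The complexins, which clamp and promote fusion, went opposite ways: CPLX1 was at 7.47, 7.72, 7.37 and 7.39 in CA3 and at 6.53, 6, 5.81 and 6.76 in CA1, a difference of 1.21 (SE 0.178, adjusted p = 0.000769). CPLX2 was at 7.17, 7.71, 7.5 and 7.19 in CA3 and at 7.92, 8.57, 8.05 and 7.72 in CA1, a difference of -0.67 (adjusted p = 0.0148), with its lowest CA1 array only just above its highest CA3 array. SYT17 differed by -1.3 (adjusted p = 6.38e-05) and RAB3C by -0.73. RIMS1 and RAB3C lost their calls without pair 3 or 4, and CPLX2 without pair 1, 2 or 4. By the median over probe sets, RIMS1 (0.23), CPLX2 (-0.38) and RAB3C (-0.043) were not called. Of 41 neuropeptide and receptor genes, ADCYAP1, which encodes PACAP (0.81), SST and CHGA, a granin of dense-core vesicles (0.62), were higher, and NTS, SCG2, another granin (-0.73), and VIP were lower. ADCYAP1 and SCG2 were not called without pair 1, 2 or 3, CHGA, SST and VIP without pair 1, 3 or 4, and NTS without pair 4. ADCYAP1 (0.48) and CHGA (0.62) were not called by the median over probe sets.

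Receptors for monoamines, acetylcholine and cannabinoids had 2 called genes of 34 (5.88%), near the 4.91% of genes above the median level. They were the muscarinic receptor CHRM3, higher by 0.87 (adjusted p = 0.00698), and the beta-adrenergic receptor ADRB1, at -1 (adjusted p = 0.00196). CHRM3 was at 11, 10.74, 10.58 and 10.61 in CA3 and at 10.12, 9.26, 10.04 and 10.03 in CA1, with array 2 of CA1 low. Both calls depend on the probe set used, since the median over probe sets gave -0.03 for CHRM3 and -0.093 for ADRB1, neither of them called. The next brightest CHRM3 probe set, at 7.09 in CA3 and 6.69 in CA1, lay the same way (0.4). The dimmer ones, at 4.25 to 5.42 in CA3, differed by -0.11 to 0.066. The serotonin receptor HTR2C, named after its values were seen, was at -0.99 (adjusted p = 0.087). Of 9 corticosteroid response genes, FKBP5, a co-chaperone of the glucocorticoid receptor, was higher by 0.71 and NR3C1, the receptor itself, was at -0.61 (adjusted p = 0.0302). Both calls were lost without pair 1, 3 or 4, and the median over probe sets gave -0.075 for FKBP5 and -0.049 for NR3C1. Of 30 growth factor and neurotrophin genes only BMP2 was called (3.33%), at -0.72, though not without pair 1 or 3. By the median over probe sets BMP2 was at -0.44 and not called. Of 17 immediate early genes only HOMER1 was called (5.88%), with the losses given above. The shares of these 2 lists were also near 4.91%.

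Adhesion and guidance genes, which help to lay down and hold connections, had calls on both sides. Of 52 synaptic adhesion and cadherin genes, 3 were higher and 9 lower (median -0.17). NECTIN3 (1.14), NRXN3, a presynaptic neurexin (1.08), and LRRTM1, a postsynaptic leucine-rich repeat protein (0.9), were higher. PCDH19 was at 8.51, 8.49, 8.98 and 8.49 in CA3 and at 10.4, 10.44, 10.59 and 10.31 in CA1, and NTM (-1.4) and the cadherins CDH10 (-1.14) and CDH18 (-1.13) were also lower. Of 46 axon guidance genes, 4 were called in each direction (median 0.0089). The semaphorin receptor NRP1 was at 5.79 to 6.03 in CA3 and 4.64 to 4.96 in CA1, a difference of 1.15 (adjusted p = 0.000144). SLIT1, a repellent ligand, was higher by 0.89, UNC5C, a netrin receptor, by 0.61 and SEMA6A by 0.6. The ephrin ligand EFNB2 was at 7.72, 7.66, 7.85 and 7.21 in CA3 and at 9.34, 9.1, 9.27 and 9.21 in CA1, a difference of -1.62 (SE 0.149, adjusted p = 7.3e-06). The ephrin receptors EPHA5 (-0.81) and EPHA7 (-0.8) and the netrin-like NTNG1 (-1.74) were the other genes lower in CA3. SLIT1 lost its call without pair 4, UNC5C without pair 1, 3 or 4, SEMA6A without any 1 of the pairs, EPHA5 without pair 2, 3 or 4 and EPHA7 without pair 1, 2 or 4. NRXN3 (0.44), NRP1 (0.53), SLIT1 (0.38), UNC5C (0.13), SEMA6A (-0.068), EPHA5 (-0.29), EPHA7 (-0.0042) and NTNG1 (-0.031) were not called by the median over probe sets.

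Neuronal transcription factor genes had 5 higher and 7 lower of 44 (median -0.1). ST18 (1), NEUROD6, a factor of excitatory forebrain neurons (0.92), ZNF536 (0.79), ID2 (0.63) and NFIA (0.6) were higher in CA3. BCL11B was at 7, 6.77, 7.8 and 6.58 in CA3 and at 8.82, 9.84, 9.71 and 9.04 in CA1, so that no array overlapped in spite of a wide spread in both groups. MEIS2, a homeobox factor, was at 6.5, 6.96, 7.18 and 6.37 against 9.16, 8.7, 8.9 and 8.69. ETV5 (-0.68), POU3F3 (-0.76), POU3F1 (-1.04) and FOXP1 (-0.57) were the other members lower in CA3 beside ETV1. NFIA and FOXP1 lost their calls without any 1 of the pairs, ID2 and ETV5 without pair 1, 3 or 4, ZNF536 without pair 1 or 3 and POU3F3 without pair 1 or 4. By the median over probe sets, ST18 (0.011), ID2 (0.36), NFIA (-0.11), ETV5 (0.061), POU3F3 (-0.25), FOXP1 (-0.54) and ETV1 (-0.066) were not called.

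Antioxidant and metal-binding genes had 2 called of 31 (6.45%, against 4.91% of genes above the median level), 1 in each direction. PRDX1, a peroxiredoxin that removes peroxide, was at 10.01, 9.98, 9.85 and 10.3 in CA3 and at 8.51, 8.57, 8.83 and 9.31 in CA1. Its difference was 1.23 (SE 0.149, adjusted p = 0.000147), and GPX1, a glutathione peroxidase, differed by -0.88 (adjusted p = 0.00582). GPX1 was not called without pair 3 or 4. In limma 0 of 23 mitochondrial respiratory chain genes were called, with a median difference of 0.19 and 18 of 23 differences above 0. Other lists leaned too, with 21 of 31 antioxidant genes above 0 and 37 of 52 adhesion genes below 0. Nothing is read from this count.

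The same contrast in newborns, on other animals, called 759 genes (3.84%), 281 higher in CA3 (1.42%) and 478 lower (2.42%). There were 222 genes called at both ages, and 220 of them had the same direction, which is 41.4% of the adult calls and 29% of the newborn calls. The genes called higher in adult CA3 had a median difference of 0.8 in adults and 0.36 in newborns, and those called lower had -0.78 and -0.52. The adult values here chose the genes, so the smaller newborn medians are a description. All 28 of the largest adult differences had the same sign in newborns, and 26 were called there. The exceptions were TFRC, at 0.19 in newborns (adjusted p = 0.642), and ETV1, at -0.72 (adjusted p = 0.0743). PEX5L differed by -1.85 in newborns, PRKCB by -1.68 and EFNB2 by -1.66, and LATS2 by 1.81.

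**Figure D5:**
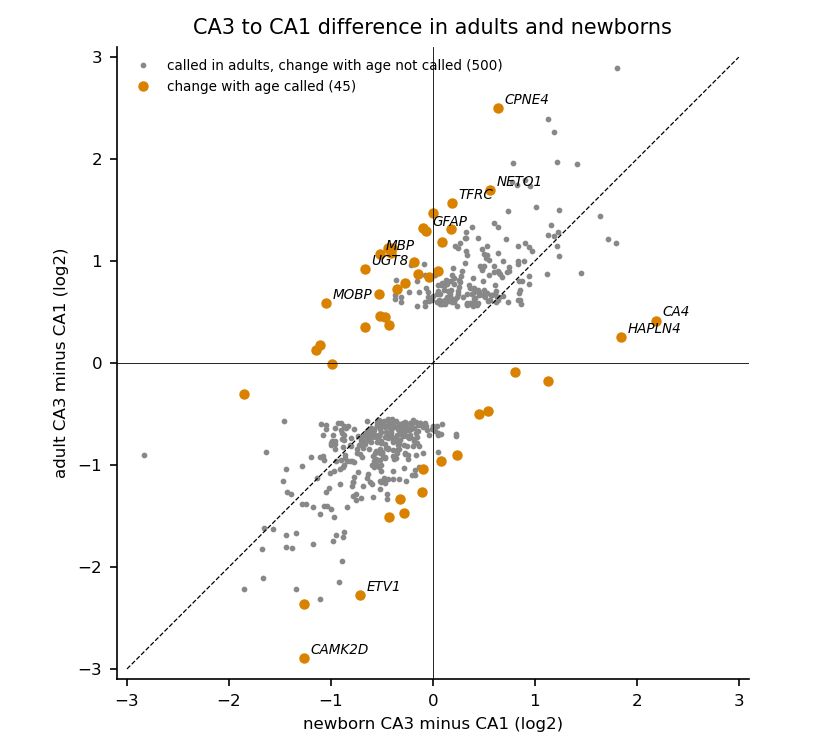
Each point is 1 gene, placed by its CA3 minus CA1 difference in log2 in newborns (x axis) and in adults (y axis, 4 pairs at each age), with the genes whose difference changed between the ages marked. CPNE4 lies at 0.64 in newborns and 2.5 in adults, and HAPLN4 at 1.84 in newborns and 0.26 in adults.

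The change of the difference between the ages was tested directly, as the adult difference minus the newborn difference. It passed in 45 genes (0.228%), 29 with a higher value in adults (0.147%) and 16 with a lower one (0.0809%), against 1867 at an unadjusted p under 0.05. With values as deposited the count was 40, of which 77.5% had a higher value in adults, against 64.4% here. In 26 of the 45 the differences had opposite signs at the 2 ages, which a choice by large change favours. Of the 45, 25 were called in adults but not in newborns, 13 in newborns but not in adults, and 6 at both ages. An opposite sign is therefore not in itself a reversal, since the difference was often not called at 1 of the ages. The count depended on single pairs and was between 8 and 39 when 1 of the 8 pairs was left out, with the lowest count without newborn pair 15 and 15 calls without adult pair 3.

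CPNE4 changed most, by 1.86 (SE 0.166, adjusted p = 0.000156). In newborns it was at 9.79, 9.86, 9.72 and 9.71 in CA3 and at 9.02, 9.3, 9.11 and 9.08 in CA1, with no overlap. The CA1 mean was 9.13 in newborns and 7.15 in adults, while the CA3 means were 9.77 and 9.65. HAPLN4, a link protein of the matrix around neurons, changed by -1.59 (SE 0.195, adjusted p = 0.00527). Its newborn CA3 arrays were at 9.17, 9.02, 9.76 and 9.17 and its newborn CA1 arrays at 7.38, 6.88, 7.99 and 7.5, whereas adult CA1 had a mean of 8.58 and adult CA3 of 8.84. CA4, a membrane-bound carbonic anhydrase, changed by -1.77 (adjusted p = 0.026), from a difference of 2.19 in newborns to 0.42 in adults. CAMK2D changed by -1.63 (adjusted p = 0.026), from -1.26 to -2.89. ETV1 changed by -1.56 (adjusted p = 0.047). By the median over probe sets the change was -0.011 for ETV1 and -1.23 for CA4, neither of them called. On the values as deposited the change of ETV1 was -1.3 and not called. The calls of CPNE4 and HAPLN4 held without any 1 of the 8 pairs, and those of CA4, CAMK2D and ETV1 did not. Without the replicate block the change of CPNE4 was still called, but HAPLN4, CA4 and CAMK2D were each at an adjusted p of 0.0665 and ETV1 at 0.25. Of the 8 changes named here and below, 7 lost their call without the block.

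Myelin genes were 3 of the 4 named with the largest changes toward CA3. MOBP changed by 1.64 (SE 0.248, adjusted p = 0.0118), from -1.05 in newborns to 0.59 in adults, UGT8 by 1.59 (adjusted p = 0.0263) and MBP by 1.59 (SE 0.206, adjusted p = 0.00527). MBP was at 12.37, 10.88, 11.39 and 12.45 in newborn CA3 and at 12.51, 12.03, 11.72 and 12.91 in newborn CA1. Both groups lay above the adult arrays of the same field, with newborn means of 11.77 and 12.3 against 10.16 and 9.1. The newborn CA3 arrays were uneven: MOBP was at 9.96, 7.65, 8.59 and 10.05 in arrays 13 to 16, so that arrays 14 and 15 were low, and NTS was at 7.61, 4.33, 4.91 and 7.92. In other genes, named after their values were seen, array 14 alone lay apart. In the same order, PAM was at 10.51, 9.18, 10.72 and 10.64, THRB at 7.72, 6.07, 7.6 and 7.75, and CIB2 at 8.38, 9.82, 8.38 and 8.3. For HMGCS1 (9.76, 9.13, 8.24 and 9.61) array 15 was the lowest. The part of array 14 in the newborn calls and medians given above was not tested. The call of MBP held without any 1 of the 8 pairs, and those of MOBP and UGT8 did not. Without the replicate block none of the 3 was called in limma, with adjusted p of 0.127 for MBP, 0.352 for MOBP and 0.237 for UGT8, and MBP was not called in the fit of all 4 ages (0.123). MBP changed by -0.16 and MOBP by 1.63 when read as the median over probe sets, neither of them called. The adult arrays had a higher GAPDH ratio than the newborn arrays in both fields. In newborns the ratio also differed between the fields, by -0.24 with no overlap, while the adult fields differed by -0.0035. The part of the ratio in these changes was tested only as a covariate, with which 23 genes were called.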

How the data were processed

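The deposited values are the authors' log2 signals of 54,675 probe sets in each of the 80 arrays. Per the labels' protocols, total RNA was labelled with biotin in 2 amplification cycles. How the probes were summarised is not given in the sources used here. All 80 arrays were quantile normalized together (limma 3.58.1, R 4.3.3), since their medians spread over 0.106. A gene was read from the probe set with 1 symbol and the highest mean over 80 arrays, which gave 19,775 genes, none left out for low signal. CA3 minus CA1 was fitted with lmFit and eBayes with the title number as a block, and SE is that of the moderated contrast. All genes entered the Benjamini-Hochberg adjustment. The title numbers follow the definition of the comparison; no label says outright that a number marks 1 animal. Per the series text, each of 16 monkeys gave 1 sample of each of 5 regions. Deviations of same-numbered arrays correlated at 0.126, 0.0172, 0.0174 and 0.133. The adult minus newborn change was fitted on the within-number differences of both ages. Members and gene lists were chosen with earlier results of these data known. Genes named were the 14 largest called each way with the same sign in 4 pairs, a brighter group above the median gene and a characterised product, up to 4 of smallest p per list, lists of up to 10 genes as needed, and 4 each way for the change. Further called list members and the genes said to be so were named after values were seen. On simulated data with 100 genes of 19,775 changed at each of 2 sizes, the adult fit recovered 60% of differences of 1 log2 and 0% of those of 0.5, with 1 false call, and the change fit 61% and 3%, with 6. The simulated noise was independent between arrays, without a pair effect, and fewer genes were changed than were called in adults. These rates may therefore differ from those of the fits on the data. The number of arrays limits the precision.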

Additional observations from a re-analysis of the deposited data

Results flagged for a closer look

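In 18 of 286 groups of 4 arrays, over 143 named genes, 1 array lay far from the other 3 by Dixon's test at 95%, and chance gives about 1 in 20. In adult CA3 these were array 1 for GRIN2B (6.79), GRM5 (8.07), KL (4.96) and POU3F1 (7.04), array 2 for CDH18 (6.13) and ZNF536 (8.1), array 3 for PCDH19 (8.98), and array 4 for ITPR1 (6.6), MET (6.07) and VSTM2A (5.84). In adult CA1 they were array 1 for KCNC1 (6.98), MET (8.64), NRP1 (4.96) and PRKAR2B (9.91), array 2 for CHRM3 (9.26), array 3 for PCP4 (7.22), and array 4 for GRIN2A (9.85) and POU3F1 (8.43). The largest called differences among them, those of MET, PCDH19 and VSTM2A, held without any 1 of the pairs.

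The difference between CA3 and CA1 changed from newborns to adults in a test of the change itself (limma, Benjamini-Hochberg adjusted p under 0.05) for 16 of the named genes. It was higher in adults for CPNE4 (1.86), MOBP (1.64), UGT8 (1.59), MBP (1.59), CLDN11 (1.57), ENPP2 (1.49), TFRC (1.38), GFAP (1.36), NETO1 (1.14), ZNF536 (1.07) and CHRM3 (1.02). It was lower for CA4 (-1.77), CAMK2D (-1.63), HAPLN4 (-1.59), ETV1 (-1.56) and CRIM1 (-1.1). Over all genes, 45 (0.228%) passed. CPNE4, MOBP, UGT8, MBP, CA4, CAMK2D, HAPLN4 and ETV1 were picked as the largest changes among genes that passed this test. Their place in the count is therefore no further support. The changes of the other genes listed here were not examined under the alternatives or without single pairs. The part of RNA quality, which differed between the ages and between the newborn fields, was not tested gene by gene beyond the covariate fit.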

How the results depend on the processing

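The adult comparison called 531 genes, and between 386 and 670 with values as deposited (531), arrays centred on their medians (520), only genes above the median level (562), a trended and robust fit (670), array weights (573) and the GAPDH ratio as a covariate (664, or 386 with the ratio of quantile normalized values, a choice made after seeing the data). Without the replicate block 409 were called, 405 of them among the 531. The title numbers gave 2 of 4 correlations over 0.1, and 2 of 4 CA3 arrays correlated best with their own number. With all 4 ages in 1 fit 1191 were called and with the median signal over the probe sets of a gene 262, and without 1 replicate at a time 290 to 395. The change between the ages (45) gave 40 and 35 on the deposited and centred values, 41 among genes above the median level, 88 with all ages, 10 with the median over probe sets, 18 with the trended fit, 23 with the GAPDH covariate, 7 without the replicate block, and 8 to 39 without 1 replicate.

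Of the 28 largest differences under 14 alternatives, 385 values kept sign and call, and the 7 others all came from the median over probe sets. That alternative, which gives weight to dim probe sets, turned the sign of CHRM3 (-0.03), ETV5 (0.061), FKBP5 (-0.075), GFAP (-0.053), GRM5 (0.052), KITLG (0.12), MBP (-0.22), MYRF (-0.15), NFIA (-0.11), PRKCE (-0.04), SEMA6A (-0.068) and SHISA6 (-0.045), and of the change of MBP (-0.16). The cause was not tested. Of 141 genes named in the adult comparison, 121 had the same sign and call status without the replicate block and 20 lost the call, and with the quantile normalized ratio the counts were 106 and 35, with 0 turned signs in both.

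Medians of gene lists moved as follows. Among genes above the median level they were 0.62 (CA3 neurons), -0.23 (CA1 neurons), -0.093 (subicular), 0.094 (meninges), 0.27 (ependyma), -0.21 (NMDA receptors), 0.042 (neuropeptides) and -0.28 (adhesion). With the median over probe sets they were -0.0036 (granule cells), 0.06 (subicular), 0.068 (astrocytes), 0.35 (myelin), -0.014 (oligodendrocyte precursors), 0.1 (ependyma) and -0.038 (potassium channels). With the quantile normalized ratio they were -0.25 (NMDA receptors), -0.047 (potassium channels) and 0.034 (neuropeptides), the last at 0.031 as deposited. Without 1 replicate they ran from -0.26 to -0.13 (CA1 neurons), -0.062 to 0.033 (CA2), -0.049 to 0.056 (subicular), 0.12 to 0.17 (ependyma), -0.12 to 0.14 (kainate), -0.37 to -0.2 (metabotropic receptors), -0.11 to -0.058 (potassium channels), 0.01 to 0.034 (neuropeptides), -0.27 to -0.16 (adhesion), -0.18 to 0.016 (transcription factors) and 0.073 to 0.13 (antioxidants).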
